A study of Rattus norvegicus with 6 samples.

Results

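The 83 probes described here carry gene symbols of the form Kcn, which name potassium channel pores and their auxiliary subunits. They stand for 81 of the 13316 named genes, 2 of which (Kcnh8 and Kcnk5) have 2 probes each, among the 21791 probes of an Illumina rat expression BeadChip. The members were chosen by symbol alone, from the platform annotation, and all 83 symbols matched current RefSeq names. Transcripts were measured in trigeminal nerves of rats that were 85 days old and had received no treatment. The inbred strain BDIX is prone to schwannomas of this nerve after ethylnitrosourea, an alkylating carcinogen. The inbred strain BDIV is resistant. BDIX.BDIV-Mss4a, called congenic here, carries BDIV alleles at the resistance locus Mss4a on a BDIX background. Nerves were pooled before RNA extraction, and how many animals went into a pool is not stated. Each strain had 1 male and 1 female pool, each on 1 array, so 6 arrays were compared and no strain and sex was measured more than once.

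Potassium channels let potassium leave the cell and so set the resting potential, end the action potential and space the next one. A pore is built from 4 alpha subunits, and cytosolic or membrane auxiliary subunits tune how it opens and where it sits. In myelinated fibres Kv1 channels (Kcna genes) with their Kvbeta subunits (Kcnab genes) lie in the juxtaparanode under the myelin. The channel Kv7.3 (Kcnq3) and the two-pore channels TREK-1 (Kcnk2) and TRAAK (Kcnk4) lie at the node of Ranvier. The RNA for axonal channels is made in the cell bodies of the trigeminal ganglion. Glial cells use inward rectifiers, above all Kir4.1 (Kcnj10) in the satellite cells around those cell bodies, to take up the potassium that firing neurons release.

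The arrays differed in brightness, with an upper quartile of the signal over background of 133 to 135 on the congenic, 276 to 288 on the BDIX and 362 to 364 on the BDIV arrays. Between 40.4% and 47.3% of all probes were detected per array, and the lowest detected level was 5.33 to 5.39 (log2) on the congenic arrays against 4.94 to 5.03 on the other 4. Levels below are log2 normalised intensities. A level of one probe cannot be set against that of another, so only the same probe is compared between arrays. Across the 10484 probes tested, the spread (SD) of the log2 gap between male and female pools was 0.525 for BDIX, 0.479 for the congenic strain and 0.217 for BDIV. Of 20 probes for sensory neuron markers 17 were detected on all 6 arrays. The probes of Calca and Scn9a, which such neurons transcribe strongly, were not detected on any array. A probe that was not detected therefore does not show that the gene is silent.

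For 56 of the 81 genes RefSeq's table for the assembly GRCr8 held the stretch from 250 bases before to 50 bases after the transcription start. Promoters are shown for Kcnh1 and Kcnh6, ether-a-go-go relatives that were higher in BDIV whichever array was left out and that have a single start in that table. Capitals mark GC boxes (GGGCGG on either strand) and, in Kcnh6, both parts of the RE1 element (TTCAGCACC and GGACAGC, either strand), the site of the repressor REST, which holds neuronal genes down in other cells.
Kcnh1, chr13:106252966-106253265, plus strand: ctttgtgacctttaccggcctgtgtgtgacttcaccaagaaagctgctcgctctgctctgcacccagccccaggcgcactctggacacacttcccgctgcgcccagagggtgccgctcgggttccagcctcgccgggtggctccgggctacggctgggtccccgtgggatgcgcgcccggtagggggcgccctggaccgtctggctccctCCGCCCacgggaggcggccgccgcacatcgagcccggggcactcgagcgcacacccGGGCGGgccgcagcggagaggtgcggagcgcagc
Kcnh6, chr10:91449401-91449700, plus strand: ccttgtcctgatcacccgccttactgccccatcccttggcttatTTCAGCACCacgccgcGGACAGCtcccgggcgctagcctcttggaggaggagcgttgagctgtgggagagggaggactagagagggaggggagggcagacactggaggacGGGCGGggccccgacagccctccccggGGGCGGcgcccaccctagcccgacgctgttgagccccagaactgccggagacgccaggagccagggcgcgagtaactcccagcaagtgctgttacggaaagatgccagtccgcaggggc
The RE1 parts were searched for after the Kcnh6 sequence had been read. The motifs did not overlap one another. GC boxes were in 33.1% of all 33469 promoters of that table and in 31 of the 62 Kcn promoters, and both genes had 2. The TATA box (TATAAA, either strand) was in 14.2% of all promoters, in 2 of the 62 Kcn promoters and in neither of these. The left RE1 part was in 0.356% of all promoters and in 1 Kcn promoter, that of Kcnh6, and the right part in 6.59% and in 7. These are matches of letters and not sites shown to be bound.

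Of the 83 probes 50 were detected on at least 1 array at a detection p under 0.01, the authors' p against negative control probes, and 23 on all 6. The other 33 were not detected on any array, 39.8% against 47.6% of all probes. Per array 32 and 42 were detected in the BDIX male and female, 40 and 43 in the BDIV male and female, and 32 and 31 in the congenic male and female pools. Both pools of a strain detected 39 probes in BDIV, 32 in BDIX and 28 in the congenic strain, which had the dimmest arrays. The KChIP genes (Kcnip1 to Kcnip4), whose proteins bind Kv4 channels, had 3 of 4 probes detected on all arrays and the Kv4 genes themselves (Kcnd) 2 of 3. Both Kv3 (Kcnc) probes were detected on all arrays. The 8 Kv1 probes had none detected on all arrays, and 2 (Kcna3 and Kcna7) were never detected. Of 14 inward rectifier (Kcnj) probes 4 were detected on all arrays and 6 on none, and of 11 two-pore (Kcnk) probes 2 and 6. Neither of the juxtaparanodal pair was well measured. Kcna1 (Kv1.1) was detected on 2 arrays, and Kcna2 (Kv1.2) on the BDIX female array only. The node channel Kcnq3 (Kv7.3) and the large-conductance channel Kcnma1 were not detected on any array.

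**Figure D1:**
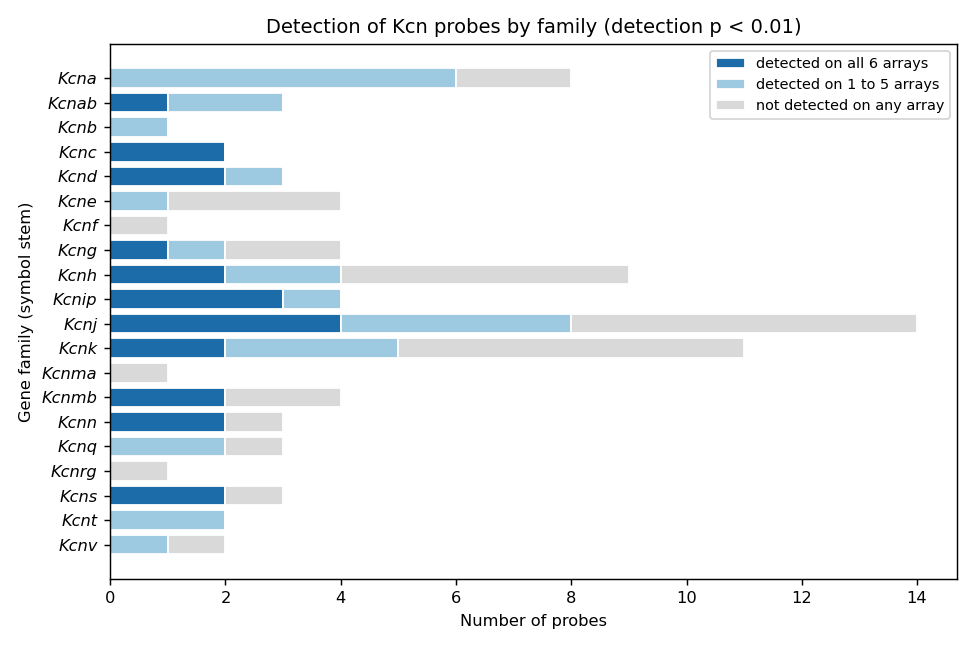
Number of Kcn probes (horizontal axis) by gene family (vertical axis), split by whether the probe was detected at a p under 0.01 on all 6, on 1 to 5 or on none of the arrays. In all 23 probes were detected on every array and 33 on none.

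BDIV was set against BDIX, the resistant against the susceptible strain, both without carcinogen. More channel probes passed as higher in BDIV (16) than as lower (1), and 29 did not pass. KChIP1, the EAG channel Kcnh1, the silent subunit Kcns3, the ERG channel Kcnh6 and the Kv3 channel Kcnc2 were 2.79-fold to 3.78-fold higher. Of 46 Kcn probes that passed the detection filter (detected on at least 2 of 6 arrays) 16 were higher and 1 lower in BDIV at an adjusted p under 0.05 in limma, where 13.4% of all 10484 tested probes were higher and 13.5% lower (26.9% in all). A probe detected only on the arrays where it is bright passes that filter because it differs. Among the 23 Kcn probes detected on all arrays, fitted with the 7884 probes of that kind, 14 were higher and 1 lower, against 15.8% and 18.7% of all (34.5% together). Fewer Kcn probes passed without 1 or the other BDIV array, where fewer of all probes passed too. More passed without 1 or the other congenic array, where more of all probes did. Without the BDIX male array, however, fewer Kcn probes passed although more of all probes did. The median Kcn difference, 0.60 with all arrays, was 0.44 to 0.74 with 1 array left out. With no detection filter Kcnc1, Kcnip2, Kcnip3, Kcnip4, Kcnk12, Kcnmb2, Kcnq1 and Kcnt1 lost their calls (adjusted p = 0.0584 to 0.1065). Over all probes 9.17% were called without that filter.

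All 4 KChIP genes were higher in BDIV. Kcnip1 read 6.10 in the BDIX male and 6.39 in the BDIX female, 8.10 and 8.22 in the BDIV male and female, and 5.96 and 5.55 in the congenic male and female pools. Both BDIV pools lay above the other 4, and the BDIV minus BDIX difference was 1.92 ± 0.26 (log2 ± SE, 2 arrays per strain, adjusted p = 0.00519). Kcnip4 read 6.59 and 7.71 in the BDIX, 8.41 and 8.77 in the BDIV and 6.82 and 6.003 in the congenic pools (male, then female, here and below). Its difference was 1.44 ± 0.42 (adjusted p = 0.0429), with a wide gap between the BDIX pools. Kcnip3, also known as DREAM, a calcium sensor that can act as a transcriptional repressor, read 5.99 and 6.58, 7.18 and 7.32, and 6.56 and 6.29 in the same order of strains. It differed by 0.96 ± 0.27 (adjusted p = 0.0399). Kcnip2 was higher by 0.73 ± 0.20 (adjusted p = 0.0361), from 8.40 and 8.33 in BDIX to 9.02 and 9.17 in BDIV. Its congenic pools, at 8.98 and 8.66, lay near the BDIV ones. Kcnip1 kept its call whichever array was left out. Kcnip4 lost it without the BDIX male (adjusted p = 0.126) or BDIV female array (0.113), Kcnip3 without the BDIX male (0.132), BDIV male (0.1605) or BDIV female array (0.228), and Kcnip2 without the BDIV male (0.0884) or female array (0.404).

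None of the 3 Kv4 pores that KChIPs bind, which carry the fast A-type current, passed the test. Kcnd3 (Kv4.3) read 8.71 and 9.13 in BDIX, 9.75 and 9.93 in BDIV and 8.34 and 7.64 in the congenic pools. The BDIV pools were the highest and the congenic pools the lowest, but BDIV minus BDIX, at 0.93 ± 0.28, missed the threshold (adjusted p = 0.05045). Kcnd1 (Kv4.1) read 10.89 and 11.46 in BDIX, 11.78 and 11.76 in BDIV and 12.00 and 11.44 in the congenic pools, which spanned the BDIV ones. BDIV and BDIX differed by 0.60 ± 0.27 (adjusted p = 0.138). Kcnd2 (Kv4.2) read 5.63 and 5.40 in BDIX, 5.92 and 5.84 in BDIV and 6.46 and 6.35 in the congenic pools. It was not detected in BDIX, against which BDIV was an estimated 1.29-fold higher without passing the test (adjusted p = 0.269). The dipeptidase-like proteins Dpp6 and Dpp10 are the other auxiliary subunits of Kv4. Dpp6 was higher in BDIV by 1.05 ± 0.26 (adjusted p = 0.0258), and Dpp10, at 0.59 ± 0.34, did not pass (adjusted p = 0.230).

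The ether-a-go-go family showed both BDIV pools above the other 4 in 3 of its 4 tested genes. Kcnh1 (Kv10.1), which repolarises slowly and is widely studied in tumours, read 7.55 and 7.72 in BDIX, 9.34 and 9.25 in BDIV and 8.41 and 8.01 in the congenic pools, a BDIV minus BDIX difference of 1.66 ± 0.22 (adjusted p = 0.0049). Kcnh6 (Kv11.2) read 7.48 and 7.70, 9.09 and 9.14, and 7.77 and 7.61, a difference of 1.53 ± 0.21 (adjusted p = 0.00517). Kcnh2 (Kv11.1, the hERG channel of the heart) read 5.68 and 5.48, 7.12 and 6.88, and 5.69 and 4.64, a difference of 1.42 ± 0.29 (adjusted p = 0.015). The congenic pools lay above the BDIX pools for Kcnh1 only. The fourth gene, Kcnh8, read 5.22 to 5.90 in BDIX, 5.61 to 5.84 in BDIV and 4.75 to 5.56 in the congenic strain, and its strains overlapped (0.16 ± 0.26, adjusted p = 0.684). Kcnh1 and Kcnh6 kept their calls whichever array was left out, while Kcnh2 lost its call without the BDIV female array (adjusted p = 0.147).

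Silent Kv9 subunits do not form pores of their own but join Kv2 channels and slow them, and Kcns1 is known from large myelinated sensory neurons of the rat. Kcns3 (Kv9.3) read 9.91 and 10.40 in BDIX, 11.79 and 11.66 in BDIV and 10.36 and 10.19 in the congenic pools, a BDIV minus BDIX difference of 1.57 ± 0.22 (adjusted p = 0.00522). Kcns1 (Kv9.1) read 6.65 and 6.62, 8.10 and 7.72, and 6.55 and 6.10, a difference of 1.27 ± 0.23 (adjusted p = 0.0103). Kcnb2 (Kv2.2), the partner pore, was detected only on the 2 BDIV arrays, at 6.46 and 6.57. It read 5.01 and 4.97 in BDIX and 4.77 and 4.70 in the congenic pools. BDIV was an estimated 2.82-fold higher than BDIX (adjusted p = 0.00712). Kcns1 and Kcns3 thus had both BDIV pools above the other 4. Kcnb2 did too, but it passed the detection filter only through the BDIV arrays, so its order adds nothing to theirs. Kcns3 kept its call whichever array was left out. With the BDIV male array left out Kcns1 no longer passed (adjusted p = 0.0615), nor with the BDIV female array left out (0.0617), and Kcnb2 could not be tested without one or the other of these, since it then failed the detection filter.

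Kv3 channels close fast and let neurons fire at high rates. Kcnc2 (Kv3.2) read 7.46 and 7.79 in BDIX, 9.19 and 9.02 in BDIV and 8.79 and 8.32 in the congenic pools, and Kcnc1 (Kv3.1) 6.46 and 6.45, 7.21 and 7.29, and 7.54 and 7.38. For both genes the BDIX pools were the lowest of the 6. BDIV minus BDIX was 1.48 ± 0.24 for Kcnc2 (adjusted p = 0.00773) and 0.80 ± 0.22 for Kcnc1 (adjusted p = 0.036). The sodium-activated channel Kcnt1 (Slack) rose by 1.06 ± 0.26 (adjusted p = 0.0244), from 5.38 and 5.50 in BDIX to 6.61 and 6.39 in BDIV, and read 6.53 and 6.03 in the congenic pools. Kcnmb2, an inactivating beta subunit of the large-conductance channel, rose by 0.89 ± 0.24 (adjusted p = 0.0331), from 5.9995 and 6.32 to 7.03 and 7.07. Its congenic pools, at 6.61 and 6.46, lay between. Kcnab2 (Kvbeta2) read 4.78 and 4.90 in BDIX, 6.10 and 5.59 in BDIV and 4.58 and 4.72 in the congenic pools. It was an estimated 1.82-fold higher in BDIV than in BDIX (adjusted p = 0.0359). The two-pore gene Kcnk12 read 4.73 and 4.79, 5.57 and 5.84, and 5.45 and 5.19, an estimated 1.65-fold higher (adjusted p = 0.0352). Both were detected on the 2 BDIV arrays alone. Kcnc2 kept its call whichever array was left out. Kcnc1 lost it without the BDIX female (adjusted p = 0.0521), BDIV male (0.159) or BDIV female array (0.345), Kcnt1 without the BDIX male (0.082), BDIV male (0.145) or BDIV female array (0.201), and Kcnmb2 without the BDIX male (0.09285), BDIV male (0.194) or BDIV female array (0.242). Kcnab2 lost it without the BDIX male (0.153) or female array (0.07405) and Kcnk12 likewise (0.108 and 0.105), and neither could be tested without a BDIV array.

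Kcnq1 (Kv7.1), a channel of heart and epithelia, was the only Kcn gene called lower in BDIV. It read 6.51 and 6.53 in BDIX, 5.67 and 5.18 in BDIV and 5.81 and 6.19 in the congenic pools, a difference of -1.09 ± 0.28 (adjusted p = 0.0295). The BDIX pools were the highest of the 6. Its call was lost without the BDIX male (adjusted p = 0.0544), BDIX female (0.07975) or BDIV female array (0.395).

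**Figure D2:**
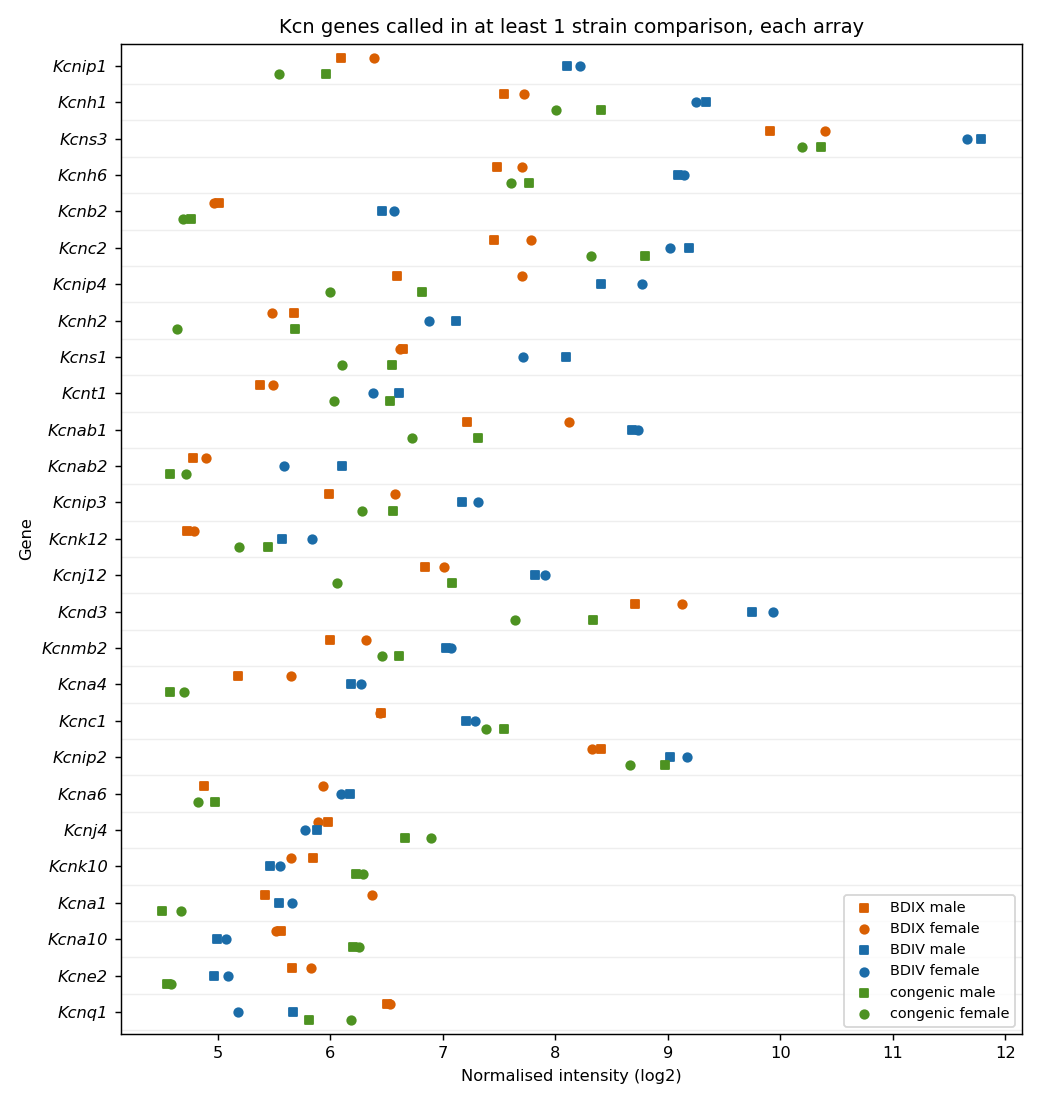
Log2 normalised intensity (horizontal axis) of the 27 Kcn genes called in at least 1 strain comparison (vertical axis), 1 point per array, squares for male and circles for female pools, coloured by strain and ordered by the BDIV minus BDIX difference. From Kcnip1, at 8.10 and 8.22, down to Kcna6 both BDIV points lie to the right of the other 4, except for Kcnt1 and Kcnc1, and in the lowest rows (Kcnj4 to Kcnq1) they do not.

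The congenic and BDIV strains share the BDIV alleles at Mss4a and differ elsewhere. More channel probes passed as lower in the congenic strain (15) than as higher (3), and 28 did not pass. The largest differences among those lower were in Kcnip1, Kcnip4 and Kcnd3. Of the 46 tested Kcn probes 15 were lower and 3 higher in the congenic, where 18.8% of all tested probes were lower and 18.1% higher (36.9% together). Among the 23 Kcn probes detected on all arrays 9 were lower and 2 higher, against 17.1% and 21.9% of all (39% together). Fewer Kcn probes passed without 1 or the other BDIV array, where fewer of all probes passed too. The median Kcn difference, -0.42 with all arrays, was then -0.42 (male left out) and -0.31 (female left out). This comparison uses the same 2 BDIV arrays as the one above, so the values are not independent of it.

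Kcnip1 differed by -2.41 ± 0.26, an estimated 5.30-fold (adjusted p = 0.00206), and the congenic arrays did not detect it. Kcnip4 was lower by 2.18 ± 0.42 on the log2 scale, a difference of -2.18 (adjusted p = 0.00913), and Kcnd3 differed by -1.85 ± 0.28 (adjusted p = 0.00457). The Kvbeta subunit Kcnab1 read 7.22 and 8.12 in BDIX, 8.69 and 8.73 in BDIV and 7.32 and 6.73 in the congenic pools. Its BDIV pools were the highest, and the congenic minus BDIV difference was -1.69 ± 0.34 (adjusted p = 0.0109). For BDIV minus BDIX, 1.04 ± 0.34, it missed the threshold (adjusted p = 0.0621). Kcnh2 was an estimated 2.81-fold lower (adjusted p = 0.00511). Kcns1 differed by -1.58 ± 0.23 (adjusted p = 0.00408), Kcns3 by -1.44 ± 0.22 (adjusted p = 0.004255) and Kcnh6 by -1.43 ± 0.21 (adjusted p = 0.0039). These 8 genes kept their calls whichever array was left out. Kcnh1 (-1.09 ± 0.22, adjusted p = 0.0104) no longer passed once the congenic female (adjusted p = 0.0913) or BDIV female array (0.0635) was left out. Kcnb2 was an estimated 2.23-fold (adjusted p = 0.00328) and Kcnab2 an estimated 1.40-fold lower (adjusted p = 0.0159). Neither gene could be tested without a BDIV array.

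Of the Kv1 genes, Kcna1, Kcna4 and Kcna6 were lower in the congenic than in BDIV, and the congenic arrays, whose detection limit was the highest, did not detect them. Kcna4 (Kv1.4), the A-type channel of small sensory neurons, read 5.18 and 5.66 in BDIX, 6.18 and 6.27 in BDIV and 4.58 and 4.70 in the congenic pools, which did not detect it. It was an estimated 1.83-fold lower in the congenic than in BDIV (adjusted p = 0.00496). Its call was lost without the BDIV male array, where the difference was -1.42. Kcna6 (Kv1.6) read 4.88 and 5.94, 6.17 and 6.09, and 4.98 and 4.83, an estimated 1.71-fold lower than in BDIV (adjusted p = 0.0304). Leaving out the congenic female (adjusted p = 0.0628), BDIV male (0.218) or BDIV female array (0.0713) ended that call. Kcna1 (Kv1.1) read 5.42 and 6.37 in BDIX, 5.54 and 5.66 in BDIV and 4.50 and 4.68 in the congenic pools. The congenic pools were the lowest for Kcna1 and Kcna4. Kcna1 was an estimated 1.18-fold lower than in BDIV (adjusted p = 0.0341), an estimate close to no change, and the BDIV male array did not detect it. Its call ended on leaving out the congenic female or BDIV male array, at differences of -0.89 and -0.74. Without the BDIX female or BDIV female array it could not be tested. Kcna1 also lost this call under cyclic loess, an offset of 50, no detection filter and the plain background SD (adjusted p = 0.0597 to 0.117), and Kcna6 under cyclic loess (0.053) and no filter (0.0585). The inward rectifier Kcnj12 (Kir2.2), best known from striated muscle, differed by -1.29 ± 0.33 (adjusted p = 0.0221). It read 6.84 and 7.01 in BDIX, 7.82 and 7.91 in BDIV and 7.09 and 6.06 in the congenic pools, and its call ended on leaving out the congenic female (adjusted p = 0.149) or BDIV female array (0.132). Skeletal muscle markers, 8 probes in all, had a summed intensity of 1471 to 1652 in BDIV, 403 to 590 in BDIX and 910 to 1762 in the congenic pools, and their part in this result was not tested.

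Higher in the congenic than in BDIV were 3 genes. Kcna10 (Kv1.8) read 6.21 and 6.26 in the congenic, 4.996 and 5.07 in BDIV and 5.56 and 5.52 in BDIX pools. The congenic minus BDIV difference was 1.20 ± 0.24 (adjusted p = 0.00971). Its values lay near background. On the BDIV female array its detection p was 0.00735 at a signal of 87.4, where Kcne2 had 0.0545 at 88.2. Kcnj4 (Kir2.3) differed by 0.95 ± 0.24 (adjusted p = 0.0216), with 6.67 and 6.89 against 5.89 and 5.78, and 5.98 and 5.89 in BDIX. Kcnk10 (TREK-2), a two-pore channel of nociceptors, differed by 0.75 ± 0.24 (adjusted p = 0.0454), with 6.23 and 6.30 against 5.47 and 5.56, and 5.85 and 5.65 in BDIX. For all 3 genes the congenic pools were the highest of the 6. The call of Kcna10 ended on leaving out the BDIV male (adjusted p = 0.1006) or female array (0.1004). Kcnj4 lost it without the congenic female (0.0853), BDIV male (0.119) or BDIV female array (0.2175), and Kcnk10 without any 1 of the congenic or BDIV arrays (0.066 to 0.336). Median scaling and no detection filter also ended the calls of Kcnj4 (adjusted p = 0.139 and 0.0709) and Kcnk10 (0.155 and 0.125), as did the authors' processed values that of Kcnk10 (0.0535).

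The congenic strain and BDIX share their background and differ at the introgressed segment. Few channel genes differed. Of 46 tested Kcn probes 2 were higher and 2 lower in the congenic, where 4.19% of all tested probes were higher and 7.61% lower (11.8% together), so the share of Kcn probes lay near that of all probes. Among the 23 Kcn probes detected on all arrays 5 were higher and 0 lower, against 6.95% and 8.26% of all (15.2% together). Both Kv3 genes were higher, Kcnc1 by 1.0115 ± 0.22 (adjusted p = 0.0354) and Kcnc2 by 0.94 ± 0.24 (adjusted p = 0.0498), with the pool values given above. The juxtaparanodal channel Kcna1, which the congenic arrays did not detect, differed by -1.31 ± 0.295 (adjusted p = 0.0386). Kcne2, a single-span subunit that joins several Kv pores, differed by -1.18 ± 0.24 (adjusted p = 0.0305). It read 5.66 and 5.83 in BDIX, 4.96 and 5.09 in BDIV and 4.55 and 4.59 in the congenic pools. Only the BDIX arrays detected Kcne2. Kcnc1 lost its call without the congenic male (adjusted p = 0.11) or female array (0.0531), Kcnc2 without the congenic male (0.289) or BDIX male array (0.0562), and Kcne2 without the BDIV male (0.0586) or female array (0.0613). Kcna1 could not be tested without the BDIX female or BDIV female array, and Kcne2 without a BDIX array, since they then failed the filter. The Kcnc2 call held in 3 of 9 processing alternatives and was lost under median scaling (adjusted p = 0.381) and, at 0.0506 to 0.0752, under cyclic loess, an offset of 50, no filter, a detection p of 0.05 and the plain background SD. Kcnc1 lost its call under median scaling (0.171) and no filter (0.0695), and Kcna1 under cyclic loess (0.065) and no filter (0.06575). Under median scaling the median of all tested probes was -0.45 in this comparison. The Kcn calls were then 0 higher and 8 lower, where 34.2% of all probes were called. More Kcn probes passed without the BDIX male array, where more of all probes passed too. Gland and airway markers, 8 probes in all, had a summed intensity of 4790 to 5324 in the congenic pools against 370.2 to 671.5 in BDIX and 471.3 to 509.6 in BDIV, and their part in the congenic values was not tested. Of the 83 probes 8 are for genes on chromosome 6, and 3 of these were tested. Of these Kcns3 differed between congenic and BDIX by 0.12 ± 0.22, Kcnk10 by 0.51 ± 0.24 and Kcnk12 by 0.56 ± 0.26, and none passed.

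Axonal and neuronal channels were set against glial ones by gene lists written with earlier results of these data known. Of 32 axonal and neuronal genes listed 27 had a probe and 21 were tested. In BDIV 9 were higher than in BDIX and none lower, with a median difference of 0.81, beside 13.4% higher over all tested probes, whose median was -0.03. Against BDIV the congenic had 12 lower and none higher (median -1.09), beside 18.8% of all. Against BDIX the congenic had 1 higher and 1 lower (median -0.24), beside 4.19% and 7.61% of all. Kcnab2 and Kcnb2, counted in the first 2 comparisons, passed the filter through the BDIV arrays alone. Kcna1, Kcna4, Kcna6 and Kcnh2, among the 12, were detected on no congenic array. Of 10 axonal probes detected on all arrays 7 were higher in BDIV than in BDIX, beside 15.8% of all. In the congenic 6 were lower than in BDIV, beside 17.1%. Not all axonal genes followed this order. The node channel Kcnk2 (TREK-1) read 9.45 and 9.50 in BDIX, 9.72 and 9.54 in BDIV and 9.10 and 9.72 in the congenic pools, so the congenic range held the BDIX pools and the BDIV female pool. BDIV minus BDIX was 0.16 ± 0.23 for Kcnk2 (adjusted p = 0.638), 0.13 for Kcnq5 (0.7655), 0.08 for Kcnmb4 (0.840), 0.10 for Kcnt2 (0.799) and 0.17 for Kcnv1 (0.764). Kcnq5 (Kv7.5) read 6.16 and 6.39 in BDIX, 6.23 and 6.58 in BDIV and 6.34 and 5.81 in the congenic pools. Kcnmb4, a beta subunit of the large-conductance channel, read 7.67 and 7.13, 7.55 and 7.41, and 7.06 and 7.26. In both genes the BDIX and BDIV pools overlapped. The sodium-activated channel Kcnt2 read 5.34 and 5.77, 5.62 and 5.69, and 5.27 and 5.81. The silent subunit Kcnv1 read 5.43 and 5.84, 5.93 and 5.67, and 5.57 and 4.47, and in these too BDIX and BDIV overlapped.

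**Figure D3:**
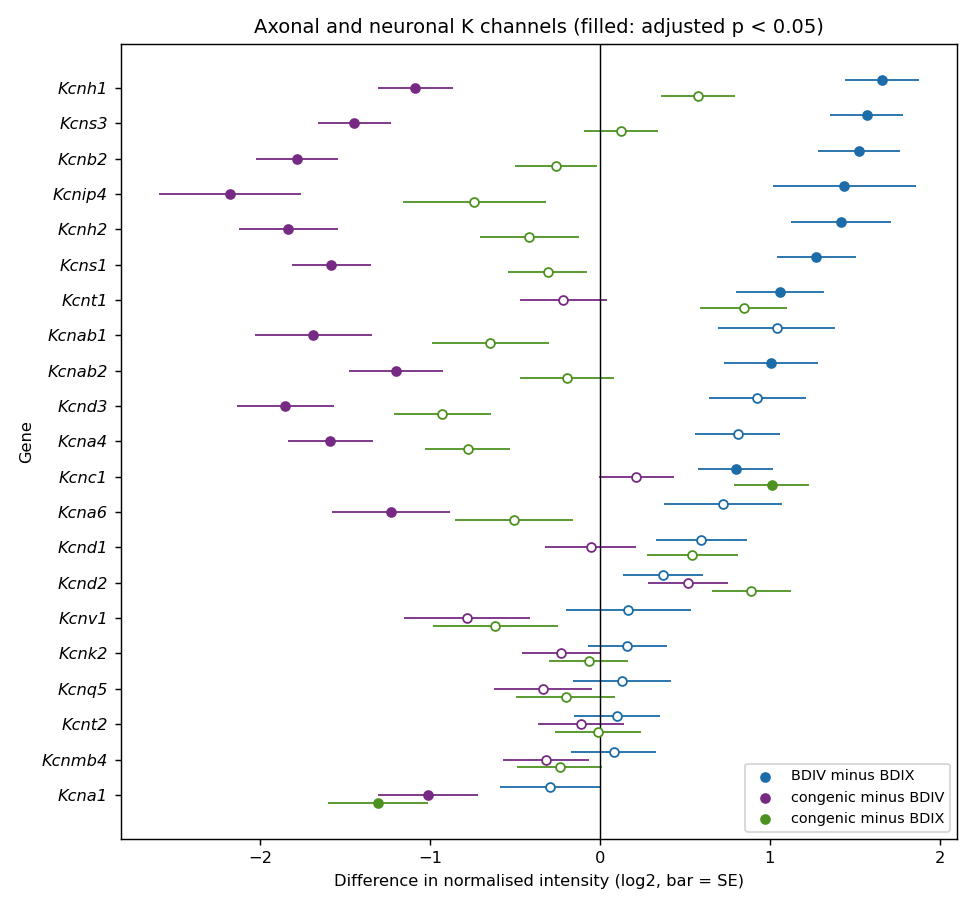
Differences in log2 normalised intensity with their SE (horizontal axis) for the 21 tested axonal and neuronal Kcn genes (vertical axis) in the 3 strain comparisons, which share arrays, with filled points for an adjusted p under 0.05. BDIV minus BDIX has 9 filled points, all right of 0, and congenic minus BDIV has 12, all left of 0.

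The glial list could hardly be compared. Of 4 genes only Kcna5 (Kv1.5), known from Schwann cells and also from smooth muscle, was detected on at least 2 arrays. It read 5.48 and 6.24 in BDIX, 5.88 and 5.51 in BDIV and 6.51 and 6.30 in the congenic pools, and its BDIX and BDIV pools overlapped. The difference was -0.16 ± 0.32 for BDIV minus BDIX (adjusted p = 0.737), 0.55 ± 0.32 for congenic minus BDIX (adjusted p = 0.273) and 0.71 ± 0.32 for congenic minus BDIV (adjusted p = 0.122). The probes of Kcnj10 (Kir4.1), its partner Kcnj16 (Kir5.1) and Kcnj2 (Kir2.1) were not detected on any array, with lowest detection p of 0.13, 0.187 and 0.143. Of 7 probes listed as satellite glia markers 6 were detected on each array, all but that of Kcnj10. Whether their RNA came from satellite glia was not tested. Whether axonal and glial channels differ in their response to strain was therefore not tested.

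Markers of sensory neurons moved with the axonal channels in the 2 comparisons with BDIV. Of 18 tested markers 15 were higher in BDIV than in BDIX and none lower (median 1.12), beside 13.4% of all tested probes higher. In the congenic 11 were lower than in BDIV (median -0.99), beside 18.8% of all. Against BDIX the congenic had 2 markers higher and 1 lower, beside 4.19% and 7.61% of all. The marker median there was 0.18, where that of the axonal channels was -0.24. The summed intensity of the 20 probes was 157000 and 157500 in the BDIV female and male, 84420 to 100200 in the BDIX and 94090 to 116800 in the congenic pools, and 2 probes (Calca and Scn9a) were at background throughout. The neurotrophin receptor gene Ntrk2 was higher in BDIV by 1.74 ± 0.19 (adjusted p = 0.00328), the neuronal ubiquitin hydrolase gene Uchl1 by 1.69 ± 0.22 (adjusted p = 0.00483) and the surface glycoprotein gene Thy1 by 1.78 ± 0.25 (adjusted p = 0.00539). Between BDIV and BDIX, myelinating Schwann cell markers moved the other way, with 7 of 10 lower in BDIV (median -1.15), beside 13.5% of all tested probes. In the congenic 3 were higher and 2 lower than in BDIV, beside 18.1% and 18.8% of all. Compared with BDIX, 5 were lower in the congenic, beside 7.61%. Their summed intensities were 58200 to 70980 in BDIV against 108800 to 148800 in BDIX. The part of either in the channel results was not tested. In bulk RNA more neuronal RNA in the pool and more channel RNA per neuron cannot be told apart.

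**Figure D4:**
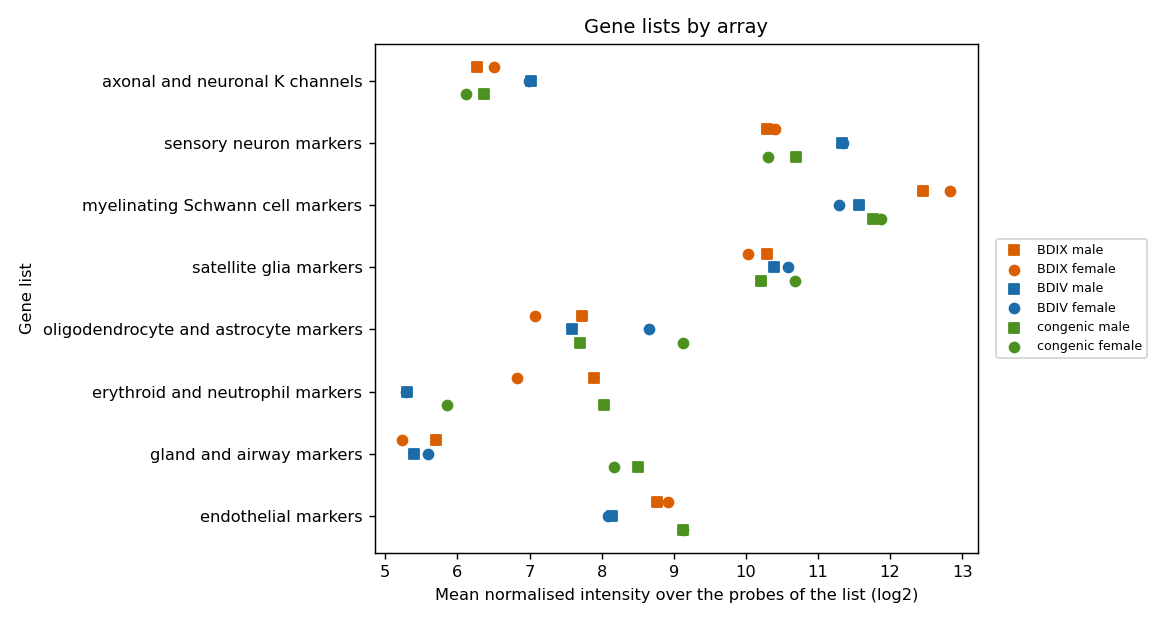
Mean log2 normalised intensity over all probes of a gene list (horizontal axis), 1 point per array, for the axonal channel list and 7 lists of cell type markers (vertical axis). The axonal channel list reads 7.02 and 6.99 in the BDIV male and female pools and 6.13 to 6.51 in the other 4, and the sensory neuron markers 11.34 in both BDIV pools and 10.29 to 10.69 in the others.

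Proteins that hold channels at the node and juxtaparanode were mixed. Of 16 tested partners 5 were higher and 4 lower in BDIV than in BDIX, beside 13.4% and 13.5% of all tested probes. Among the 4 with the lowest p, the secreted protein Lgi3 (1.46 ± 0.22, adjusted p = 0.006225) and the sodium channel beta subunit Scn4b (1.59 ± 0.24, adjusted p = 0.0062) were higher. The scaffold protein Dlg1 (-1.82 ± 0.24, adjusted p = 0.0049) and Gldn (-1.92 ± 0.25, adjusted p = 0.0049), which Schwann cells secrete at the node, were lower. Against BDIV, the congenic had 5 of the 16 lower and 2 higher, beside 18.8% and 18.1% of all. Against BDIX it had 1 higher and 1 lower, beside 4.19% and 7.61%. The lower gene was Dlg1 (-1.33 ± 0.24, adjusted p = 0.0235). Of the 4 tested partners of potassium channels that the symbol rule leaves out, Abcc9, the sulfonylurea receptor of mural cells, was lower in BDIV than in BDIX by 0.96 ± 0.23 on the log2 scale, a difference of -0.96 (adjusted p = 0.0237). Its pore partner Kcnj8 (Kir6.1) read 6.16 and 6.03 in BDIX, 5.39 and 5.43 in BDIV, which did not detect it, and 5.82 and 6.04 in the congenic pools. BDIV was an estimated 1.61-fold lower than BDIX without passing the test (adjusted p = 0.0742). Smooth muscle and pericyte markers had summed intensities of 473 to 498 in BDIV, 714 to 775 in BDIX and 1108 to 1200 in the congenic pools, and their part was not tested.

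Channels linked to blood, epithelium or several tissues gave few calls. The two-pore channel Kcnk1 (TWIK-1) was detected on all arrays and read 12.67 and 13.50 in BDIX, 12.39 and 12.01 in BDIV and 12.75 and 12.85 in the congenic pools. BDIV lay lowest, but the difference from BDIX of -0.89 ± 0.29 did not pass (adjusted p = 0.0582). Of 3 tested epithelial genes 1 (Kcnq1) was lower in BDIV than in BDIX, beside 13.5% of all tested probes. In the congenic 1 (Kcne2) was lower than in BDIX, beside 7.61%. The single tested vascular and blood genes, Kcnj8 and Kcnn4, were not called in any strain comparison, and neither was Kcnj11 (Kir6.2), Kcnj14 (Kir2.4), Kcnj9 (Kir3.3) or the small-conductance channel Kcnn1.

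No Kcn probe differed between male and female pools at an adjusted p under 0.05 in limma, and 0% of all probes did. At an unadjusted p under 0.05, 2 of 46 Kcn probes passed, Kcnn4 and Kcnh8, among 318 of all. Kcnn4, the calcium-activated Gardos channel of red cells and lymphocytes, read 8.13 in the BDIX male and 6.35 in the female, 7.39 and 7.41 in BDIV and 8.20 and 7.21 in the congenic strain. The male pool was higher in BDIX and the congenic but not in BDIV (0.92 ± 0.32, adjusted p = 0.9585). Erythroid and neutrophil markers, 10 probes in all, had a summed intensity of 7245 and 1884 in the BDIX, 405 and 431 in the BDIV and 8111 and 719 in the congenic male and female pools, and their part in the Kcnn4 values was not tested.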

How the data were processed

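Total RNA of pooled trigeminal nerves was extracted with Trizol, labelled with biotin and hybridised to 6 arrays, per the labels. The authors deposited a signal intensity, linear and not background-subtracted, and a detection p-value per probe, per the file headers. The processed intensity values that they also deposited were linear in that signal, array by array. The submitters' processing notes name BeadStudio 3.0. Groups came from the sample titles. For 242 of 21791 probes, none of them Kcn, the 2 tables disagreed and the probes were left out.

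Background was corrected with a normal-exponential model. Its mean and SD came from the values of the 824 or 825 negative controls implied by the detection p. On the congenic male and BDIX male arrays a single control at 969 and 1145 raised the plain SD to 32.5 and 39.2, so a robust (Huber) estimate was used, 7.56 to 10.3 per array. This was chosen after seeing the data, with the plain SD as an alternative. After an offset of 16, quantile normalisation and log2, the 10484 probes detected (p under 0.01) on 2 or more arrays entered the test. All 6 arrays entered 1 limma fit (version 3.58.1, R 4.3.3) with terms for strain and sex, with an intensity trend, 2 residual and 5.16 prior degrees of freedom. Adjusted p are Benjamini-Hochberg over all probes tested. The number of arrays limits the precision, and every p-value rests on the spread among 6 pools. Strain and any hybridisation batch cannot be told apart.

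"Estimated" folds apply where a group's arrays did not detect the probe. They set the brighter mean against a floor: per dim array, the probe's own level or the lowest detected level, whichever is higher, then averaged. They are not minima, since probes above the lowest detected level could go undetected. Kcnd2, for example, was not detected on the BDIX male array at 5.63, where the lowest detected level was 4.94. For Kcnip1 (congenic versus BDIV), Kcnd2 and Kcnj8 (BDIV versus BDIX) the undetected levels themselves were used. On simulated data of 10484 probes the BDIV versus BDIX test found 62 of 100 probes changed by 1 (log2) and 100 of 100 changed by 2, with 7 false calls. For congenic versus BDIX these were 55, 100 and 11, and for congenic versus BDIV 55, 99 and 10. The simulated noise was normal, independent between probes and arrays, and of equal spread in each strain. In the data the strains differed in spread and many more probes were called, so these counts are not error rates of the data. The members, lists and comparisons were chosen with earlier results of these data known. Named genes are the called Kcn probes, the detected axonal and glial ones, and, outside the Kcn genes, up to 4 per list with the lowest p. Calca and Scn9a, the marker probes never detected, were named after their values were seen. Probe sequences were not used here, so a variant between strains under a probe and a changed level look alike.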

Additional observations from a re-analysis of the deposited data

Results flagged for a closer look

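Kcnn4 was the only tested Kcn gene whose BDIV minus BDIX difference was past 0.5 on the log2 scale in opposite directions in the sexes. The male pools differed by -0.74 and the female pools by 1.06, a gap of -1.80. With 1 pool per strain and sex the difference between the sexes was not tested.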

How the results depend on the processing

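Each comparison was repeated with 1 choice changed at a time. No call on a single gene changed sign. Among genes not called, 1 reversed into a call, Kcng1, at -0.63 in congenic versus BDIV under median scaling (adjusted p = 0.0393) against 0.08. Shares in brackets are those of all probes called, and hold for the axonal counts of the same setting too. Against the 17 Kcn calls in BDIV versus BDIX (26.9%), median scaling gave 26 (32.4%) and no detection filter 9 (9.17%). Leaving out 1 array gave a median Kcn difference of 0.44 to 0.74, against 0.60. The count moved with that of all probes except without the BDIX male array. There fewer Kcn probes passed though more of all probes did, at a median Kcn difference of 0.45. For the 4 calls in congenic versus BDIX (11.8%), median scaling gave 8 (34.2%), no filter 1 (2.55%) and no sex term 7 (15.5%). With 1 array left out the median Kcn difference was -0.07 to 0.02, against -0.06. For the 18 in congenic versus BDIV (36.9%), probes detected on all arrays gave 11 (39%) and leaving out 1 array 9 (BDIV female) or 10 (BDIV male) to 22. Without 1 or the other BDIV array fewer of all probes passed too. The 22 came without the BDIX male array, where more of all probes passed. Among axonal genes, BDIV versus BDIX gave 2 to 13 calls with 1 array left out against 9. The 2 came without the BDIV female array, where fewer of all probes passed, and the 13 without a congenic array, where more did. Congenic versus BDIX gave 6 under median scaling, 0 with no filter (limma; of all 83 Kcn probes 21 were at an unadjusted p under 0.05), 1 for probes detected on all arrays and 2 to 5 with 1 array left out. The 5 came without the BDIX male array, where more of all probes passed. Congenic versus BDIV gave 6 for probes detected on all arrays and 7 to 13 with 1 array left out. The 7 came without 1 or the other BDIV array and the 13 without the congenic male array. Fewer of all probes passed in each of these. Fewer probes are tested under the stricter filter and more under none; otherwise the cause was not tested. Under median scaling the median of all probes was -0.57 in congenic versus BDIV, so changes there are relative to that. The plain background SD gave 18, 4 and 18 calls in the 3 comparisons, and the authors' processed values 18, 4 and 19. At a detection p of 0.05 the arrays detected 38 to 50 Kcn probes. No paired analysis was possible because the labels give no replicate numbers; the sex term matches the pools by sex.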
